A study of Mus musculus with 8 samples.

Results

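TsTS is the fourth of 5 transcript regions for which the deposited table gives a yes/no call of N6-methyladenosine (m6A), and it stands between the coding sequence (CDS) and the 3' UTR. The header does not spell the name out. The members are the TsTS regions of all 18578 coding transcripts (RefSeq NM identifiers) among the 19776 transcripts of the table, chosen by identifier and not by any measured value. Each has a call in 4 cultured cell types. ESC are embryonic stem cells at passage 14, and iPSC are induced pluripotent stem cells at passage 22, whose way of reprogramming is not stated in the labels. NSC are neural stem cells taken from E12.5 fetal brain, at passage 16, and SC are Sertoli cells of the testis at passage 2. All came from C57BL/6 mice, and no genetic change or drug treatment is labelled. For each cell type, 1 library of mRNA fragments of about 100 nt was enriched with an antibody against m6A, of the same lot in all 4 cell types, and 1 RNA-seq library gave the expression in FPKM (fragments per unit of transcript length and of library size). With 1 library of each kind there is no replicate, so no comparison between cell types could be tested. All 95% intervals are exact (Clopper-Pearson) and cover counting error over transcripts only.

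m6A is the most frequent internal modification of mammalian mRNA. It is laid down in the nucleus by a complex built around METTL3 and METTL14, at adenosines within a short consensus of which GGACT is the best known form. It is removed by FTO and ALKBH5 and bound by readers such as the YTH proteins, and it is known to affect splicing, translation and decay of the mRNA. In many tissues m6A is concentrated near stop codons and in the beginning of the 3' UTR. In pluripotent cells the mark is known to shorten the life of transcripts of pluripotency factors.

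The stop codon is the landmark that the region's place in the table points to, so its sequence is shown for transcripts at the extremes of the call. Sequences are sense-strand GENCODE transcripts of the GRCm38 mouse build, 30 bases each. Capitals mark GGACT where it occurs within 100 bases of the stop codon, and otherwise the stop codon. The first 3 are the most highly expressed transcripts, by their lowest FPKM over the 4 cell types, that were called in all 4. They encode the elongation factor that moves the ribosome along the mRNA (Eef2), an actin-sequestering peptide (Tmsb10) and a subunit of the mitochondrial ATP synthase (Atp5h).
Eef2: cctggacaaactgTAGgcagcctgatactg
Tmsb10: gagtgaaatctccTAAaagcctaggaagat
Atp5h: catcgagaacctgTGAagcagcctgggacg
None of the 3 had GGACT within 100 bases of the stop codon. The next 3 are the most highly expressed transcripts called in no cell type, all encoding ribosomal proteins.
Rplp1: cggtctttttgacTAAactgcttttgttaa
Rps28: tcgaaggttgcgtTAAtcttgcagctgggt
Rps2: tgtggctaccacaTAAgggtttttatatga
These also lacked GGACT there. Of the transcripts called in ESC and iPSC only, the 3 with the highest mean FPKM encode the ribosomal proteins Rpl41 and Rpl14 and the actin-nucleating complex subunit Arpc1b. GGACT lay 72 bases after the stop codon in Rpl41 and 54 bases after it in Rpl14.
Rpl41: ggacaagctatcGGACTgtgtgctgccatc
Rpl14: aatctcatgtgtGGACTctaagcttgtcgc
Arpc1b: cctgaaaatcaaaTGAgctgtgcagactag
The corresponding transcripts called in NSC and SC only encode a glutathione transferase (Gstm1), a 14-3-3 protein (Ywhae) and a G protein beta subunit (Gnb2). GGACT in Gnb2 lay 25 bases before the end of the stop codon.
Gstm1: ctggagtaacaagTAGgcccttgctacacg
Ywhae: agatgagaatcagTGAgacgaaataaaagc
Gnb2: tacaggctcctgGGACTccttcctcaagat

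The following sequences belong to transcription factors and to the transcripts richest in the motif, whose calls are given further on. The 4 Sox genes at 1 FPKM or more in every cell type were picked after their calls were seen. In Sox11 and Sox12 the motif lay 43 bases before the end of the stop codon, in Sox13 52 bases and in Sox4 82 bases before it.
Sox11: gatgatcgcgggGGACTggctggaggcgaa
Sox12: gatgatcgcaggGGACTggcgctcgtctag
Sox13: cagcgaggacgaGGACTcagagggtgacga
Sox4: cttcgaattcccGGACTattgcacgcccga
The 4 factors that together reprogram fibroblasts to pluripotency are shown because none was called in all 4 cell types. GGACT lay 67 bases before the end of the stop codon in Myc and 8 bases after it in Sox2, and Klf4 and Pou5f1 had none.
Klf4: gaagaggcactttTAAatcccacgtagtgg
Myc: cacctctgaaaaGGACTtattgaggaaacg
Pou5f1: catgcattcaaacTGAggcaccagccctcc
Sox2: catgtgagggctGGACTgcgaactggagaa
The last 4 are from transcripts with 3 copies of GGACT within 100 bases of the stop codon. Tpt1, a calcium-binding growth protein, and Uqcr11, a subunit of respiratory complex III, were called nowhere. Imp3, which takes part in ribosome assembly, and Jund, an AP-1 transcription factor, were called in all 4 cell types.
Tpt1: catacaacaccaGGACTtaggacaaatggg
Uqcr11: gcggctgatcctGGACTgggtgccttacat
Imp3: tgtcacctgggtGGACTcatccaagatcaa
Jund: gggcgcatgcgcGGACTagctgcggtgggg

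Most markers of each label were expressed in its culture, with the least contrast for NSC. Of 40 pluripotency genes, 38, 39, 8 and 7 were at 1 FPKM or more in ESC, iPSC, NSC and SC, while all 24 Sertoli markers reached it in SC against 9, 9 and 5 in ESC, iPSC and NSC. Of 25 neural stem cell markers, 17 reached it in NSC, against 12, 14 and 12 in ESC, iPSC and SC. Their median was 7.46 FPKM in NSC and 1.69 in iPSC, but 4 of them were listed at 0 in NSC. The 4 most expressed, Vim, Cd9, Sox2 and Hes1, were each higher in another culture than in NSC. Of 16 fibroblast and peritubular myoid markers, 12 were at 1 FPKM or more in SC and 10 in iPSC, which bears on the Sertoli and iPSC values below; their part in the calls was not tested. The deposited FPKM summed to between 394600 in iPSC and 818860 in SC. The numbers of reads behind the calls and the FPKM values are unknown. In bulk RNA, fewer molecules with the mark in every cell and fewer cells with the mark cannot be told apart, and a call does not give the share of molecules modified.

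In ESC, TsTS was called in 7013 coding transcripts (37.7%), and in iPSC in 6965 (37.5%). NSC had 5590 called transcripts (30.1%) and SC 6525 (35.1%). In 10834 transcripts (58.3%) it was called in at least 1 cell type. A call needs RNA to be seen, so shares were also taken over transcripts at 1 FPKM or more in the same cell type. By that count TsTS was called in 5868 of 11741 transcripts in ESC, which is 50% (95% interval 49.1 to 50.9), and in 5831 of 12072 in iPSC, which is 48.3%. It was called in 4883 of 12925 in NSC, which is 37.8% (36.9 to 38.6), and in 5976 of 13367 in SC, which is 44.7%. The order from high to low was therefore ESC, iPSC, SC and NSC. With the most expressed transcript standing for each gene, the shares were 50%, 48.8%, 38.1% and 44.4% in ESC, iPSC, NSC and SC. These shares over all expressed transcripts and genes are the background for every count that follows.

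ESC and iPSC differed little when both were measured on the same transcripts. Over the 10559 transcripts at 1 FPKM or more in both, TsTS was called in 50.1% in ESC and 48.5% in iPSC, a difference of 1.66 percentage points. Over the 11389 transcripts expressed in both NSC and SC, the share was 5.53 points lower in NSC. The ESC share exceeded the NSC share by 12.7 points over 9988 transcripts and the SC share by 6.16 points over 10103. The difference between ESC and iPSC depended on which transcripts were counted: it was 5.52 points above 5 FPKM and 0.258 points with no filter on FPKM.

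The share of called transcripts was highest at intermediate expression and fell among the most abundant mRNAs. In ESC it was 39.0% between 1 and 2 FPKM, 56.2% between 10 and 20 FPKM and 31.0% of 364 transcripts above 200 FPKM. In iPSC the highest share, 53.4%, lay between 2 and 5 FPKM, and above 200 FPKM 17.3% of 249 transcripts were called. NSC had 42.9% between 5 and 10 FPKM and 10.5% of 256 transcripts above 200 FPKM. In SC the highest share, 51.3%, lay between 20 and 50 FPKM, and above 200 FPKM 37.7% of 613 transcripts were called. The fall at the top was thus seen in every cell type and was smallest in SC, where FPKM values also summed highest. The abundant transcripts were built differently: the median annotated 3' UTR was 1063 bases between 1 and 2 FPKM in ESC and 207 bases above 200 FPKM, and in NSC it was 969 and 254.5 bases. What part 3' UTR length, depth or the authors' peak calling have in the fall was not tested.

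**Figure D1:**
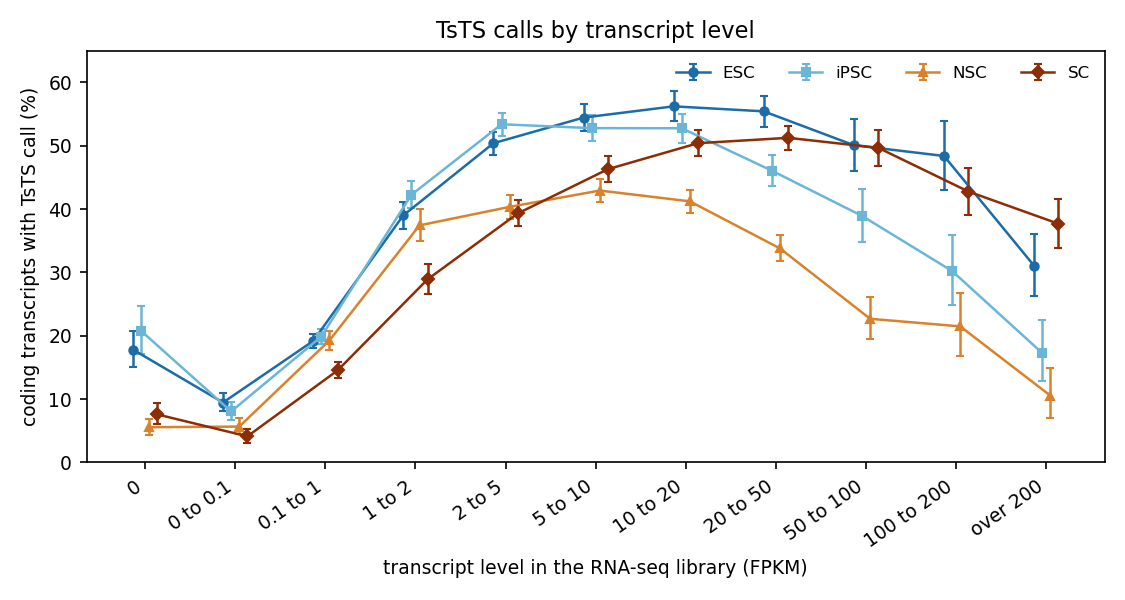
Share of coding transcripts with a TsTS call (percent) by expression of the transcript in the same cell type (FPKM bins), for ESC, iPSC, NSC and SC, with exact 95% intervals over transcripts. The share rises to its highest value between 2 and 50 FPKM and above 200 FPKM it is the lowest of all bins from 1 FPKM up in ESC, iPSC and NSC (31.0%, 17.3% and 10.5%), whereas SC keeps 37.7%.

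Calls were also present where the RNA-seq library gave little RNA. Of the transcripts under 1 FPKM, 1145 of 6837 were called in ESC (16.7%) and 549 of 5211 in SC, and of those listed at exactly 0 FPKM, 129 of 724 were called in ESC (17.8%). Another transcript of the same gene was at 1 FPKM or more for 65.0%, 59.5%, 71.0% and 81.6% of the called transcripts under 1 FPKM, over ESC, iPSC, NSC and SC. The same share over uncalled transcripts under 1 FPKM is not given, so these values do not set the called ones apart. Transcripts of 1 gene with an identical stop codon window had the same call in 99.2% of pairs in ESC (1364 of 1375) and iPSC, 99.6% in NSC and 99.3% in SC, whereas pairs with different windows had it in 76.6% (SC) to 83.2% (NSC). Isoforms with 1 stop codon are therefore not independent members. Transcripts at 10 FPKM or more in 1 cell type and under 1 FPKM in the others were called in 5 of 12 cases in ESC and 3 of 4 in iPSC. In SC they were called in 138 of 230 cases (60.0%, against 44.7% of all expressed transcripts). In NSC they were called in 5 of 79 (6.33%, 95% interval 2.09 to 14.2, against 37.8%). The low share in NSC was not particular to TsTS, as the CDS was called in 6 of the 79 in NSC and in 147 of the 230 in SC. The 5 NSC transcripts with a TsTS call were Btbd17, Rassf2, a tumour suppressor of the Ras association family (22.2 FPKM), Cacng4, a calcium channel subunit, Tox3, a chromatin factor, and Igfbp5, a binding protein of insulin-like growth factors (10.4 FPKM). In SC the most expressed called ones were the chemokine Ccl17 (1960 FPKM), the retinaldehyde dehydrogenase Aldh1a1 (1610 FPKM), the glutamate transporter Slc1a6, the vasoconstrictor peptide Edn1 (284 FPKM) and Wbp1l (116 FPKM), whose call was present in all 4 cell types.

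GGACT within 100 bases of the stop codon went with a higher share of TsTS calls in all 4 cell types. The motif, searched on the sense strand as these 5 letters, was present in 24.3% of the 18320 stop codon windows. It was in 21.2% of windows of up to 200 bases around the start codon and in 21.7% of the first 200 bases of the transcripts. Start codon windows were shorter where the 5' UTR was under 100 bases, and stop codon windows where the 3' UTR was. These percentages are therefore not for equal lengths, and copies near the stop codon are not separated from 3' UTR length. Of expressed transcripts in ESC, TsTS was called in 45.7% with no copy, 61.1% with 1, 72.8% with 2 and 78.9% of 38 transcripts with 3 or more. In iPSC the shares rose from 43.0% over 62.4% and 78.8% to 89.2% of 37 transcripts. The steps in NSC were 33.8%, 48.8%, 58.2% and 75.6%, and in SC 41.3%, 53.7%, 65.6% and 68.9%. The share rose with each further copy in every cell type, although in SC the interval for 3 or more copies (53.4% to 81.8%) overlaps that for 2 (60.9% to 70.1%). With copies around the start codon it rose step by step in no cell type. For 0, 1 and 2 or more copies there, ESC had 49.7%, 51.4% and 50.6%, iPSC 48.5%, 48.3% and 45.8%, NSC 38.0%, 37.8% and 35.3%, and SC 44.9%, 43.9% and 48.4%. With copies in the first 200 bases ESC had 49.3% (48.3 to 50.4), 53.0% (50.9 to 55.1) and 50%, and SC 44.6%, 45.2% and 46.9%. A smaller difference was thus also seen away from the stop codon in ESC.

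The side of the stop codon made a smaller difference than the presence of the motif. In ESC 58.8% of transcripts with GGACT only upstream were called, 65.3% with it only downstream and 73.7% with it on both sides. In iPSC these shares were 59.5%, 67.5% and 80.9%, in NSC 46.7%, 52.9% and 58.5%, and in SC 52.0%, 57.3% and 66.8%. Counted along the transcript in windows of 50 bases, the motif was in the first 50 bases after the stop codon in 11.3% of called and 5.90% of uncalled transcripts in ESC. The corresponding pairs were 11.9% and 5.23% in iPSC, 11.4% and 6.19% in NSC, and 10.8% and 5.97% in SC. In the windows starting 350 and 500 bases before the stop codon, called transcripts had it no more often than uncalled ones. At 350 bases the pairs were 5.64% and 5.78% in ESC, and 5.42% and 5.84% in SC. At 500 bases they were 5.33% and 6.14% in ESC, and 5.86% and 6.13% in SC. In between, at 400 bases, called transcripts were above again, with 5.90% against 5.42% in ESC and 6.13% against 5.68% in SC.

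**Figure D2:**
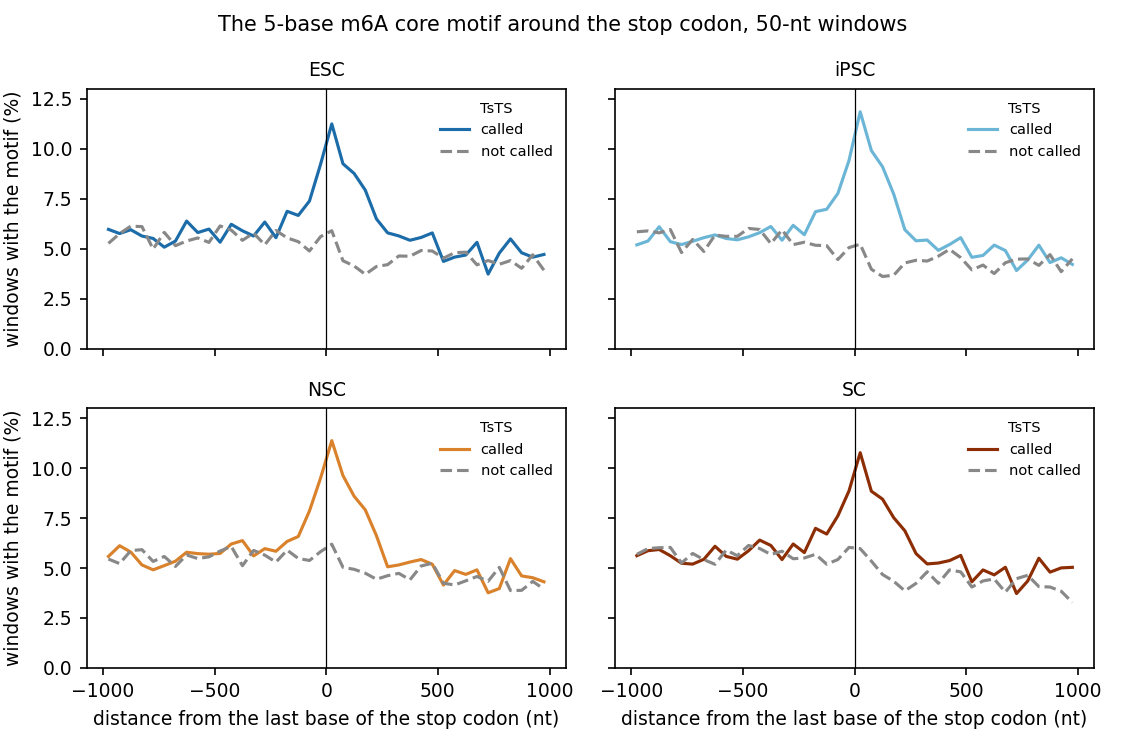
Percent of transcripts with the 5-base m6A core motif in windows of 50 bases, against distance from the stop codon (bases, 0 at the stop codon), for transcripts at 1 FPKM or more with and without a TsTS call, 1 panel per cell type. Called transcripts stand above uncalled ones near the stop codon, for example 11.3% against 5.90% in the first window after it in ESC. Upstream, the lines first cross in the window starting 250 bases before the stop codon in ESC and 350 in the other cell types.

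The base composition and the length of the 3' UTR also went with the call. Transcripts were put into 5 groups of GC content of the stop codon window, of equal size over all 18320 matched transcripts but not over the expressed ones. In the lowest group TsTS was called in 27.2% of ESC, 32.5% of iPSC, 24.7% of NSC and 22.6% of SC transcripts. In the highest group the shares were 68.4%, 60.5%, 46.4% and 64.4%. GGACT kept its higher share within groups of like GC content: in the lowest of 3 GC groups, ESC had 29.4% without and 42.0% with the motif, and in the highest 60.2% and 76.3%. The same held in NSC, with 25.4% and 41.6% in the lowest GC group and 41.1% and 54.6% in the highest. Above 200 FPKM the shares without and with the motif were 30.2% and 34.1% in ESC, 14.1% and 30.6% in iPSC, 10.0% and 13.3% in NSC, and 35.3% and 46.7% in SC. The intervals of each of these pairs overlap, on 45 to 135 transcripts with the motif.

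With 3' UTR length the share rose in iPSC, NSC and SC and levelled off in ESC; the difference in course was not tested. In the shortest of 5 groups made in the same way, up to 273 bases, 34.4% of ESC, 28.8% of iPSC, 22.9% of NSC and 27.0% of SC transcripts were called. In iPSC the share rose through every group to 65.0% in the longest, above 2165 bases, and in NSC to 51.1%. In ESC it was 54.6% in the second group and 52.0% in the longest. SC had 43.4% in the second and 53.0% in the longest group. Transcripts ending in TAA were called less often than those ending in TGA in all 4 cell types, by 41.0% against 53.7% in ESC and by 34.7% against 39.2% in NSC. Where the stop codon was not in the last exon, 33.1% were called in ESC against 50.8% of the others.

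**Figure D3:**
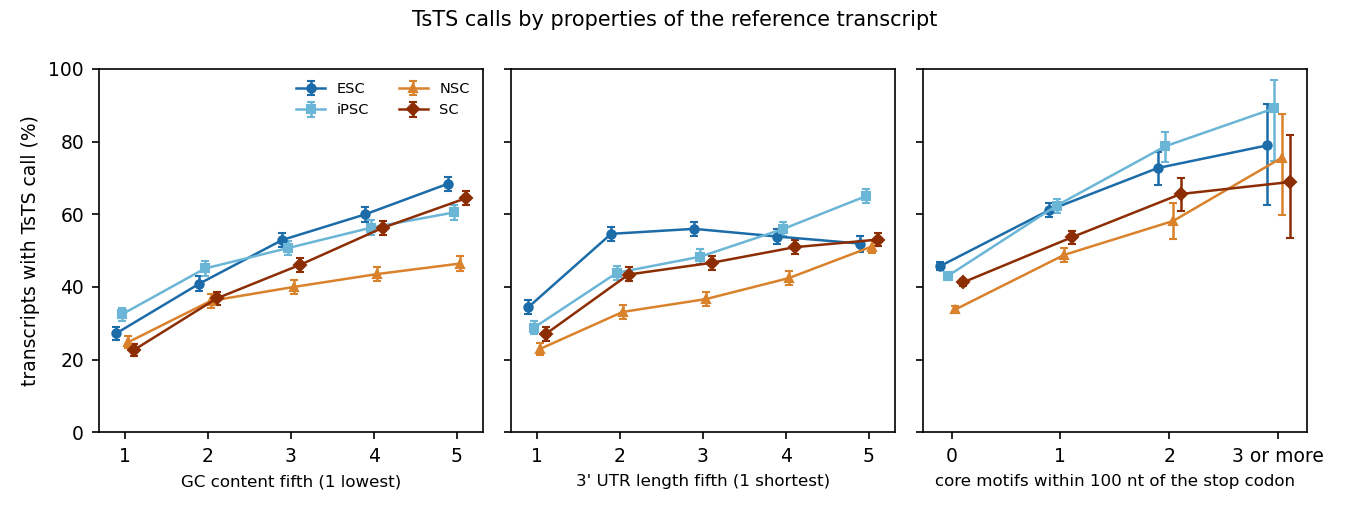
Share of expressed coding transcripts with a TsTS call (percent, exact 95% intervals) by GC content of the stop codon window and by 3' UTR length, each in 5 groups from low to high (of equal size over all matched transcripts), and by copies of the 5-base m6A core motif, for the 4 cell types. The share rises with motif copies and with GC content in each cell type, while with 3' UTR length it climbs throughout in iPSC (28.8% to 65.0%) and levels off after the second group in ESC (54.6% to 52.0%).

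TsTS calls clustered with calls elsewhere on the same transcript. In ESC TsTS was called in 69.4% of transcripts with a CDS call and 35.6% of those without, and in NSC in 62.5% and 17.3%. For the 3' UTR the shares with and without its call were 76.7% and 40.1% in ESC, and 71.3% and 36.7% in iPSC. They were 72.0% and 24.3% for NSC and 74.2% and 35.8% for SC. The distant TcSS region, first in the table's order, went with it more weakly in ESC, with 62.3% and 47.4%, than in NSC, with 66.5% and 33.6%. Adjacent regions can share a fragment, so the regions of 1 transcript are not independent. TsTS was the only region called in 1141 of the 5868 called transcripts in ESC (19.4%), and in 19%, 13.7% and 19.6% of those called in iPSC, NSC and SC. Among transcripts with any call, TsTS was among the called regions in 70.3%, 67.9%, 63.1% and 64.3%. By copies of the motif near the stop codon, 0, 1, 2 and 3 or more, the CDS was called in 41.9%, 44.4%, 47.0% and 60.5% of ESC transcripts, and the 3' UTR in 26%, 29.3%, 37.3% and 18.4%. The last shares rest on 38 transcripts, with intervals from 43.4% to 76.0% for the CDS and from 7.74% to 34.3% for the 3' UTR.

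Calls were compared over the 4 cell types in the 9081 transcripts at 1 FPKM or more in all of them. The 2 most frequent patterns were no call in any cell type, in 2882 transcripts (31.7%), and a call in all 4, in 2045 (22.5%). TsTS was called in ESC, iPSC and SC but not NSC in 791, and in ESC, iPSC and NSC but not SC in 415. The pattern that follows the developmental state was rare: 293 transcripts (3.23%) were called in ESC and iPSC only and 65 (0.716%) in NSC and SC only. More transcripts were called in ESC and SC only, 498 (5.48%), and in iPSC and NSC only, 338 (3.72%). Calls in a single cell type were found in 390 for iPSC, 378 for ESC, 253 for NSC and 246 for SC.

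The patterns differed in the make-up of their transcripts. Those called in all 4 had a median 3' UTR of 1222 bases and a median window GC content of 54.5%, and 38.6% had GGACT. Those called in none had 605.5 bases, 47.5% and 15.6%. Transcripts called in ESC and SC only had short 3' UTRs and high GC content, with 628 bases, 54.5% and GGACT in 20.6%. Those called in iPSC and NSC only had 1397 bases, 50% GC and GGACT in 31.7%.

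**Figure D4:**
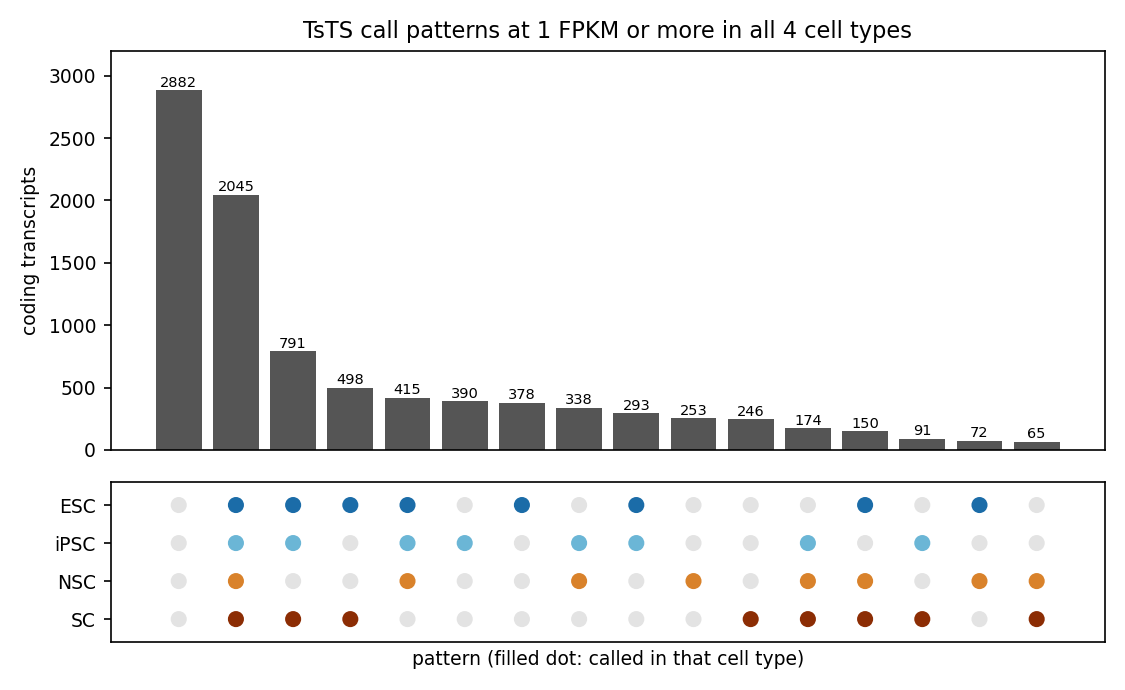
Number of coding transcripts with each of the 16 patterns of TsTS calls over ESC, iPSC, NSC and SC, among 9081 transcripts at 1 FPKM or more in all 4 (bars from 0; filled circles mark the cell types with a call). No call (2882) and a call in all 4 (2045) lead, and ESC with SC only (498) outnumbers ESC with iPSC only (293).

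Agreement between pairs of cell types was also highest for ESC and SC. ESC and SC had the same TsTS call in 80.6% of transcripts expressed in both, ESC and iPSC in 77.0% and iPSC and NSC in 76.2%. The share was 73.4% for iPSC and SC, 69.5% for NSC and SC and 68.8% for ESC and NSC. Of the SC calls, 85.3% were also ESC calls, and of the ESC calls 75% were SC calls. Of the NSC calls, 84.0% were iPSC calls, and of the iPSC calls 64.6% were NSC calls. ESC and SC also led in the CDS, with 82.4% for ESC and SC and 79.4% for iPSC and NSC against 77.9% for ESC and iPSC, and in the 3' UTR with 87.6% for ESC and SC. In the TcSS region iPSC and NSC led with 88.3%, followed by ESC and SC with 83.5%. In the 5' UTR, where few transcripts were called, iPSC and NSC led with 96.6%, followed by ESC and SC with 95.9%. In the 3' UTR, ESC and iPSC had 83.1% and iPSC and NSC 82.6%. The high agreement of ESC and SC was thus not limited to TsTS. The pair of iPSC and NSC lay close to that of ESC and iPSC in TsTS and the 3' UTR, with overlapping 95% intervals. In TsTS these were 75.4% to 77.1% and 76.1% to 77.8%, and in the 3' UTR 81.9% to 83.3% and 82.4% to 83.9%. The labels give no library or sequencing date, and whether libraries were handled in pairs was not tested.

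Transcripts whose TsTS call was absent in the second cell type had another call there in 41.4% to 62.7% of the cases given here. Of the 1304 transcripts with TsTS called in ESC and not iPSC, 62.0% had another region called in iPSC. For the 1129 called in iPSC and not ESC the share was 58.5%. Of the 2194 called in ESC and not NSC, 41.4% had another call in NSC, and of the 2052 called in SC and not NSC, 46.3% did. In the other direction, TsTS calls of NSC that were absent elsewhere left another call in 55.2% of cases in ESC, 62.7% in iPSC and 60.2% in SC. As background, of all 12925 expressed transcripts in NSC, 7740 had a call in any region and 4883 in TsTS. These counts were 8345 and 5868 of 11741 in ESC, 8589 and 5831 of 12072 in iPSC, and 9288 and 5976 of 13367 in SC. Other calls were thus also present on many transcripts without a TsTS call.

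Whether a transcript was higher in the cell type with the call differed between pairs. Differences are log2((FPKM + 1)), relative to the median of all transcripts of the pair, which in the deposited values lay between -0.89 (ESC minus SC) and 0.04 (ESC minus iPSC). Transcripts called in ESC and not SC had a median difference of 0.42 toward ESC, and those called in SC and not ESC one of -0.73, toward SC. For ESC against iPSC the medians were 0.35 and -0.38, each toward the cell type with the call. They were 0.38 and -0.53 for iPSC against SC, and 0.15 and -0.27 for ESC against NSC. In NSC against SC they were 0.03 and -0.06, and in iPSC against NSC -0.06 and 0.00. In the first 4 pairs the transcripts called in 1 cell type only thus leaned toward the cell type with the call. In the last pairs they lay near the median of all transcripts. Transcripts with the same call in both cell types could also leave that median. In ESC against NSC, those called in both had 0.09 (95% interval 0.04 to 0.15), overlapping 0.15 (0.09 to 0.21) for those called in ESC only. In NSC against SC, those called in both had -0.25 and those called in neither 0.19. The pairs share libraries and are not independent.

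Of the 2916 genes at 10 FPKM or more in all 4 cell types, 587 were called in all 4 and 1102 in none. Among those called in all, Eef2 had an FPKM of 724, 735, 1776 and 1289, in the order ESC, iPSC, NSC and SC kept throughout. Tmsb10 ranged from 292 FPKM in NSC to 1945 in ESC. Atp5h, at 353, 202, 234 and 529 FPKM, had no call in any other region in any cell type. Calr, a calcium-binding chaperone of the endoplasmic reticulum, had 1 GGACT near its stop codon and 398, 181, 212 and 948 FPKM. Others among the most expressed were Gpi1 (a glycolytic enzyme), Park7, Anp32b, Ppp1r14b and Hspa9 (a mitochondrial chaperone). The 10 uncalled ones were 9 ribosomal protein genes, from Rplp1 (8921, 4245, 5407 and 3430 FPKM) to Rps16, and the prolyl isomerase Ppia (3947, 2433, 1818 and 3215 FPKM). The transcripts with no call thus included some of the most abundant of all 4 libraries.

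Calls in ESC and iPSC only were found in 86 of these genes and calls in NSC and SC only in 12. Rpl41 was called in ESC (6061 FPKM) and iPSC (3367 FPKM) and not in NSC (5442 FPKM) or SC (6966 FPKM), so its highest level was in an uncalled cell type. Serpinh1, the collagen chaperone, was likewise uncalled where it was high, with 32.9 and 24.2 FPKM in the called ESC and iPSC and 262 and 1164 FPKM in NSC and SC. Bsg, a glycoprotein that escorts lactate transporters to the membrane, had 349, 198, 337 and 443 FPKM. Rpl14, Arpc1b, Tuba1c, Eif3h, Psmb1, Clic1 and Cox7a2l had the same calls. Among the 12 called in NSC and SC only, Gstm1 had 45.5, 11.6, 64.0 and 6962 FPKM, and Ywhae had 346, 280, 281 and 542 FPKM. Gnb2 followed with 131, 62.6, 228 and 371 FPKM, and the others named were Hnrnpab, Vdac3, Copz1, Kpnb1 (a nuclear import receptor), Pcnp, Arl2bp and Cdk11b. The levels of Ywhae in ESC, iPSC and NSC lay close together although its call differed.

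Calls confined to 1 cell type were seen in 147 genes for ESC, 92 for iPSC, 69 for NSC and 88 for SC. The most expressed with a call in ESC only were the ferritin light chain Ftl1 (5058, 2708, 2185 and 2878 FPKM) and the ribosomal protein genes Rpl36, Rpl26, Rpl8 and Rpsa. In iPSC they were Rps9, Rps10, Rps25, the lysosomal protease Ctsl (74.2, 78.6, 117 and 6834 FPKM) and the cytokine Mif. In NSC they were the matrix protein Sparc (247, 85.7, 89.2 and 6204 FPKM), the metallothionein Mt1, the tetraspanin Cd81, Pebp1 and Uqcr10. In SC they included Eef1a1, Gapdh, Lgals1 (71.1, 52.9, 560 and 8615 FPKM) and Rpl24. Sparc and Ctsl were called outside the cell type with by far the highest level, whereas Lgals1 was called in it.

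Genes missing the call in 1 cell type included cytoskeletal ones. Actb and Tuba1a were called in all but ESC, and Tubb5 in all but SC, with 749, 403, 559 and 1610 FPKM. Actg1 was called in iPSC (1149 FPKM) and NSC (604 FPKM) only, against 697 FPKM in ESC and 7546 in SC. Tmsb4x, Tagln2, Igfbp2, Bax and Hsp90b1 were called in all but iPSC, and Rpl13a, Rps19, Rps6, Ptma and Rpl21 in all but NSC. Hnrnpa2b1, Fis1 and Cs were further genes called in all but ESC, and Ldhb, Ckb, Hspd1 and Hnrnpf in all but SC. Ribosomal protein genes, Eef1a1, Gapdh, actins and tubulins have near-identical copies, so reads may have been split between them and their calls are uncertain.

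Gene lists were read against the share of all expressed genes, with 1 transcript per gene. Of 46 lists, 38 had at least 6 expressed genes in every cell type. Of these, 16 lay above the share of all genes in all 4 cell types, 6 lay below in all 4, and 16 did neither. Above were 8 lists of signalling and transcription factor genes, namely Sox, Klf, Forkhead, Myc family, Wnt, TGF-beta, immediate early and pluripotency genes. The others above were the m6A writers and readers, epithelial-mesenchymal switch genes, histone demethylases and SWI/SNF genes, the microRNA pathway, actins and tubulins, chaperones and cholesterol synthesis genes. Those below were cytosolic ribosomal protein genes, oxidative phosphorylation subunits, glycolysis and citric acid cycle enzymes, proteasome subunits, splicing factors and translation factors. Some lists counted as above lay close to the share of all genes. The m6A readers had 50% against 48.8% in iPSC, and in NSC 40% (95% interval 12.2 to 73.8) against 38.1%. Chaperones had 51.6% against 48.8% in iPSC, and the Myc family 40% against 38.1% in NSC. Lying above in all 4 cell types is therefore a count of sides only. The lists were chosen with earlier results of these data known, and no list was tested.

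**Figure D5:**
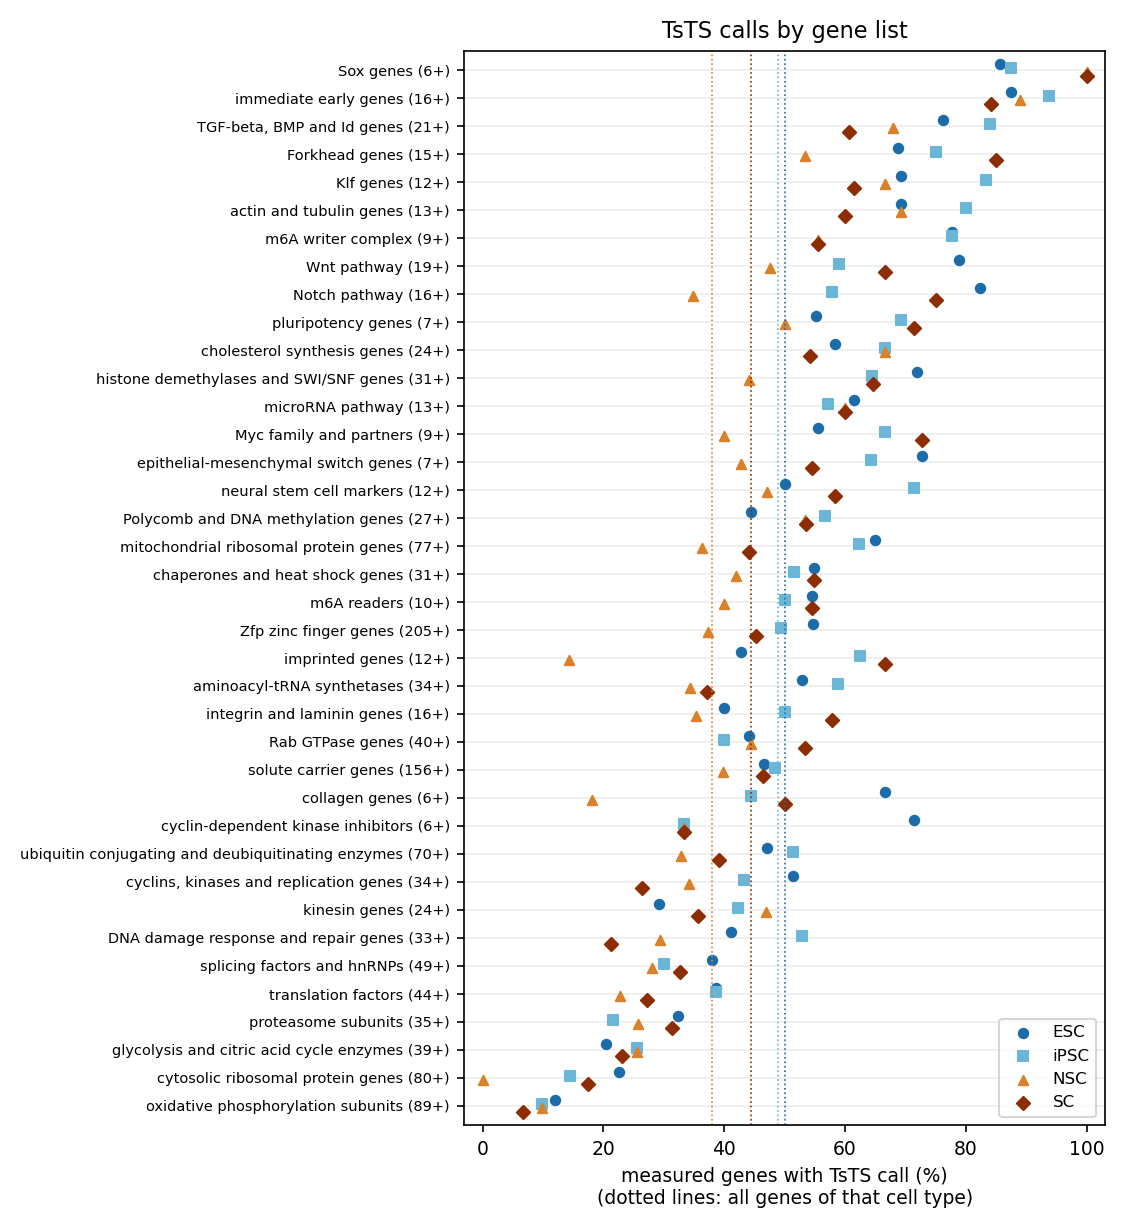
Share of expressed genes with a TsTS call (percent) for the 38 gene lists with at least 6 expressed genes in every cell type, in ESC, iPSC, NSC and SC, with the share of all expressed genes as vertical lines. Immediate early and Sox genes lie to the right of the lines in each cell type, and cytosolic ribosomal protein genes and oxidative phosphorylation subunits to the left.

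Immediate early genes, whose short-lived transcripts answer growth signals, were called in 14 of 16, 15 of 16, 16 of 18 and 16 of 19 expressed genes over ESC, iPSC, NSC and SC. Of the 16 expressed in all 4, 11 were called in all. They included the AP-1 genes Jun, Jund and Junb (8.26, 25.8, 18.2 and 80.2 FPKM) and the zinc finger factor Egr1. Ier2 had 105, 84.7, 34.5 and 83.5 FPKM, and Ier3, 1 of the genes with the motif, had 10.9, 6.67, 27.8 and 805 FPKM. Fos was called in all but SC, where its level was highest at 73.3 FPKM. Zfp36, whose protein promotes decay of AU-rich mRNAs, was called in iPSC (13.6 FPKM) and NSC (16.8 FPKM) and not in ESC (4.95 FPKM) or SC (86.9 FPKM).

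Sox genes, developmental transcription factors, were called in 6 of 7, 7 of 8, 6 of 6 and 8 of 8 expressed genes in ESC, iPSC, NSC and SC. The 4 expressed everywhere, Sox4, Sox11, Sox12 and Sox13, were called in all 4 cell types and each had GGACT within 100 bases of the stop codon. Sox11 had 3.49, 1.63, 38.2 and 2.74 FPKM, so a call was present at low levels as well as at high ones. Sox9, the factor of Sertoli cell identity, was called in SC at 106 FPKM and also in NSC, where it was at 0.966 FPKM. The uncalled member in both ESC (35.5 FPKM) and iPSC (11.1 FPKM) was Sox15. Klf genes were called in 9 of 13, 10 of 12, 8 of 12 and 8 of 13, although none of the 10 expressed everywhere had the motif. Klf2, a factor of the naive pluripotent state, was called at 223, 49.5, 2.41 and 23.1 FPKM. Forkhead genes were called in 11 of 16, 12 of 16, 8 of 15 and 17 of 20, among them Foxo1 and Foxo3, which act downstream of insulin signalling, in all 4. Foxo4 had 2 copies of the motif and was called in none (6.91, 14.3, 15 and 19 FPKM).

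Of the 4 reprogramming factors, Klf4 and Myc shared a pattern of calls, and Pou5f1 and Sox2 each had another. Pou5f1, which encodes OCT4, was called in iPSC at 554 FPKM and not in ESC at 602 FPKM, and it was at 0 and 0.0761 FPKM in NSC and SC. Sox2 was called in ESC, iPSC and NSC at 84.6, 119 and 14.3 FPKM. Klf4 was called in ESC (136 FPKM), iPSC (62.1 FPKM) and SC (21.2 FPKM) and not in NSC, where it was highest at 303 FPKM. Myc too was called in ESC (0.807 FPKM), iPSC (5.43 FPKM) and SC (7.07 FPKM) and not in NSC, where it was at 579 FPKM. Both factors were thus uncalled in the library with their highest level. The Myc values are those of the more expressed of its 2 coding transcripts, which was under 1 FPKM in ESC.

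The pluripotency genes were called in 21 of 38 expressed genes in ESC and 27 of 39 in iPSC. Of all 40, 19 were called in both, 8 in iPSC and not ESC, 2 in ESC and not iPSC, and 11 in neither. Called in both were Nanog (254 and 232 FPKM), the orphan receptor gene Esrrb (64.0 and 50.5 FPKM), Zfp42, the growth factor gene Fgf4 and Nodal, a ligand of the TGF-beta family (42.9 and 44.9 FPKM). Pou5f1, Utf1 (108 and 241 FPKM) and Dnmt3l (38.0 and 177 FPKM) were among those called in iPSC and not ESC, and Prdm14 (11.2 and 3.53 FPKM) was called in ESC and not iPSC. Uncalled in both were Dppa5a (4078 and 1986 FPKM), the Nodal co-receptor Tdgf1 (381 and 439 FPKM) and the let-7 inhibitor Lin28a (20.5 and 56.8 FPKM). In ESC the median level of the called genes was 42.9 FPKM and that of the uncalled ones 24.8 FPKM.

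Signalling pathways had members with a call at several steps. TGF-beta, BMP and Id genes were called in 16 of 21, 21 of 25, 17 of 25 and 17 of 28 in ESC, iPSC, NSC and SC. The type I receptors Acvr1 and Bmpr1a, the signal transducers Smad1 and Smad4 and the repressors Ski and Skil were called in all 4, and the inhibitors Smad6 and Smad7 in all but NSC, where both were under 1 FPKM. Smad4 had 5.42, 16.3, 38.9 and 41.4 FPKM. Its target Id1 was called in all 4, and Id3 in all but SC, where it was highest at 143 FPKM. The ligand genes Tgfb1, Tgfb3 and Bmp2 were called in SC only. In the Notch pathway, 14 of 17, 11 of 19, 8 of 23 and 12 of 16 were called. The receptor gene Notch1 was called in ESC (2.57 FPKM) and SC (7.42 FPKM) and not in iPSC (4.12 FPKM) or NSC (33.9 FPKM). The ligand gene Dll3, at 162 FPKM in NSC, was uncalled, and the target Hes1 was called in all 4 (47.9, 10.8, 29.7 and 88.1 FPKM). Wnt pathway genes were called in 15 of 19, 13 of 22, 10 of 21 and 18 of 27. Ctnnb1, the beta-catenin gene, was called in all but SC, where it was highest at 137 FPKM.

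Sertoli cell markers were called in 10 of 24 in SC, close to the 44.4% of all genes. The called ones included the transcription factor genes Sox9, Sox8, Gata4 (176 FPKM), Wt1 (105 FPKM) and Nr5a1 (75.7 FPKM), and the signals Gdnf, Dhh and Amh. Of the 4 most expressed markers, Clu, Vim (3438 FPKM) and Inha (719 FPKM) were uncalled and Aard (626 FPKM) was called. Among the other uncalled ones was the tight junction gene Cldn11 (257 FPKM). The called markers had a median 3' UTR of 1447 bases and the uncalled ones 219.5 bases, while their median levels were 85.4 and 66.8 FPKM. Of the expressed fibroblast and peritubular markers, 6 of 12 were called in SC, among them Tagln (2166 FPKM) and not Acta2 (1795 FPKM), and of the germ and Leydig cell markers 2 of 3 were called.

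The genes of the m6A system were themselves called in part. Of the genes of the writer complex, counted together with Mettl16, 7 of 9 were called in ESC and iPSC and 5 of 9 in NSC and SC. The catalytic subunit gene Mettl3 was called in none (9.78, 12.1, 12 and 20.7 FPKM), and its partner Mettl14 in all but NSC (6.48, 10.8, 11.1 and 9.42 FPKM). Wtap, which brings the complex to its targets, was called in all but SC at 23, 26.3, 20.5 and 30.1 FPKM, as was the separate methyltransferase gene Mettl16. Zc3h13, Cbll1 and Rbm15b were called in all 4, Rbm15 in all but NSC and Virma in none. The demethylase gene Alkbh5 was called in all 4, whereas Fto was called in NSC only (9.69, 11.1, 26.3 and 31.8 FPKM). Of the readers, 6 of 11, 6 of 12, 4 of 10 and 6 of 11 were called. Ythdc1, the nuclear reader, was called in all 4, and Ythdf2, which promotes decay, in all but NSC. Ythdf1, Ythdf3 and Ythdc2 were called in none, and Ythdf1 was at 17, 55.4, 25.6 and 30.9 FPKM. Elavl1 was called in NSC only, and Igf2bp1, Igf2bp2 and Igf2bp3 were called in ESC and iPSC, in ESC and SC, and in all but NSC.

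Cytosolic ribosomal protein genes were called in 19 of 84, 12 of 83, 0 of 80 and 14 of 80. The count of 0 of 80, in NSC, allows a share of up to 3.75% by a limit of 3 counts, and the exact interval reaches 4.51%. Of the 79 expressed in all 4, 53 were called in none and none was called in all. Their median 3' UTR was 84 bases. In ESC the called genes had a median 3' UTR of 222 bases and the uncalled ones 68, at like median levels of 2276 and 2215 FPKM. Mitochondrial ribosomal protein genes stood elsewhere, with 50, 48, 28 and 34 of 77 called and a median 3' UTR of 327 bases, and 39.0% of them had GGACT. Oxidative phosphorylation subunits were called in 11 of 92, 9 of 91, 9 of 91 and 6 of 89, and 71 of 88 were called in none. Glycolysis and citric acid cycle enzymes were called in 8, 10, 10 and 9 of 39, and Pkm, Aldoa and Eno1 were uncalled everywhere. Proteasome subunits were called in 12 of 37, 8 of 37, 9 of 35 and 11 of 35. Cholesterol synthesis genes, another metabolic group, were called in 14, 16, 16 and 13 of 24. Insig1, which holds the sterol sensor in the endoplasmic reticulum, was called in all but SC at 36.4, 17.9, 139 and 72.4 FPKM, and Fdps was uncalled.

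Genes of chromatin and the cell cycle were divided. The histone deacetylase genes Hdac1 and Hdac2 were called in ESC and SC only, with 165, 146, 46.5 and 78.0 FPKM for Hdac1. The Polycomb genes Ezh2 and Eed were called in none, and Phc2 in all 4. Polycomb and DNA methylation genes were called in 12 of 27, 17 of 30, 16 of 30 and 15 of 28, and histone demethylases and SWI/SNF genes in 23 of 32, 20 of 31, 15 of 34 and 22 of 34. Cyclins, kinases and replication genes were called in 18 of 35, 16 of 37, 13 of 38 and 9 of 34. The 4 most expressed of them, Cdk4, Pcna, Mcm7 and Ccnd3, were uncalled, as was the p53 gene Trp53 (113, 121, 68.8 and 115 FPKM), while Cdkn1a, the p21 inhibitor of cyclin-dependent kinases, was called in all but NSC at 147, 22.3, 234 and 458 FPKM. DNA repair genes were called in 14 of 34, 18 of 34, 10 of 34 and 7 of 33. Splicing factors were called in 19 of 50, 15 of 50, 14 of 50 and 16 of 49, and translation factors in 17, 17, 10 and 12 of 44.

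The transcripts with the most copies of the motif were not all called. Of the 15 genes with 3 or more GGACT near the stop codon and 10 FPKM or more in all 4 cell types, 10 were called in all and 2 in none. Jund, called in all, had 61.0, 32.6, 63.5 and 124 FPKM, and Imp3 had 121, 58.0, 104 and 112 FPKM. Tpt1, called in none, had 2024, 1810, 2561 and 1769 FPKM, and Uqcr11 had 766, 285, 225 and 712 FPKM. Both uncalled transcripts were above the called pair in level in every cell type, and their 3' UTRs were 314 and 189 bases long, against 337 for Imp3 and 533 for Jund.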

How the data were processed

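Expression values are FPKM made by the authors, per the file headers; no reads could be recovered from them (at most 1.08% of low-value ratios fell in 1 bin of 0.02 log2). The m6A values, per the file headers, are yes/no calls that the authors deposited for 5 regions per transcript. CASAVA, TopHat2 2.0.4, Cufflinks 2.0.2 and the build mm9 are named in the submitters' processing notes without their roles. Not given in the sources used here are the peak caller, its threshold, the extent of each region and the depth.

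Symbols came from RefSeq for 18352 and GENCODE for 59 of the 18578 NM transcripts; 167 had none. Stop codon windows (100 bases on each side, shorter where the 3' UTR ended) came from GENCODE M21 (GRCm38) transcripts matched by identifier, for 18320 transcripts (98.6%). The annotation differs in build from the deposited table, so no coordinates are given. Shares were taken with pandas 2.3.3, numpy 2.4.6 and scipy 1.17.1 in Python 3.11.15 (figures: matplotlib 3.10.9) after a filter of 1 FPKM, or 10 FPKM for named genes, and the calculations were tested on simulated data. For log2 differences a pseudocount of 1 was added. With 1 library per cell type and assay no test was made.

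The members and lists were chosen with earlier results of these data known. Genes named were the most expressed with each pattern of calls, up to 4 of each list by mean FPKM, and all reprogramming factors and m6A genes. Further members of the Sox, Klf, Forkhead, immediate early, TGF-beta, Notch, pluripotency and Sertoli lists and the motif-rich genes were picked after their values were seen. Alternatives were no filter, 5 FPKM, 1 transcript per gene, the 8000 top transcripts of each library, standardised expression and leaving out a cell type. Some genes that the rule selects are not reported here.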

Additional observations from a re-analysis of the deposited data

How the results depend on the processing

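No paired analysis was possible because each cell type had 1 library of each assay and the labels give no replicate numbers. The shares moved with the FPKM filter, and the depth is unknown; the cause of each move was not tested. No direction of a difference turned in 30 alternative values.

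With no FPKM filter the shares of ESC, iPSC, NSC and SC were 37.7%, 37.5%, 30.1% and 35.1%. The differences in points were then 0.258 for ESC minus iPSC, 7.66 for ESC minus NSC, 2.63 for ESC minus SC, 7.40 for iPSC minus NSC and 2.37 for iPSC minus SC. The pattern counts were 7744 for no call, 673 for ESC and iPSC only and 307 for NSC and SC only. Above 5 FPKM the shares were 53.2% in ESC and 48.3% in SC, with differences of 5.52 (ESC minus iPSC), -8.93 (NSC minus SC), 17.4 (ESC minus NSC), 8.02 (ESC minus SC) and 3.93 (iPSC minus SC). The counts were 1101 for a call in all 4, 1665 for none, 146 for ESC and iPSC only and 22 for NSC and SC only. With and without another region's call, the TsTS share above 5 FPKM differed by 38.9 points for the 3' UTR in ESC, 33.2 for the CDS in iPSC, 42.5 for the CDS in NSC and 46.0 for the 3' UTR in NSC.

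Over the 8000 top transcripts of each library the shares were 52.8% in ESC, 36.3% in NSC and 48.8% in SC, with differences of 4.57 (ESC minus iPSC), -10.0 (NSC minus SC), 16.6 (ESC minus NSC) and 2.30 (iPSC minus SC). The counts were 1142, 1720, 142 and 24 for all 4, none, ESC and iPSC only, and NSC and SC only. With expression standardised, the SC share was 43.7%, and the differences were -3.79 (NSC minus SC), 9.09 (ESC minus SC) and 8.08 (iPSC minus SC). Leaving out 1 cell type, the count for ESC and iPSC only was 767 without ESC, 692 without iPSC, 745 without NSC and 1151 without SC, and that for NSC and SC only 236, 261, 323 and 331. These settings require 1 call fewer and also take in transcripts under 1 FPKM in the cell type left out.

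Agreement of calls under alternatives chosen after seeing the data was 78.5% above 5 FPKM and 78.6% over the top transcripts for ESC and iPSC, 69.9% over the top transcripts for ESC and NSC, 82.5% and 82.7% for ESC and SC, 78.5% and 78.0% for iPSC and NSC, and 74.8% and 74.9% for iPSC and SC. Over all alternatives, 17 of 30 differences, 19 of 32 pattern counts, 10 of 20 shares, 9 of 24 agreements, 13 of 72 expression medians, 7 of 32 feature medians, 4 of 32 region differences and 4 of 359 list shares moved, and none of 8 GGACT differences did. With a pseudocount of 5, the median for transcripts called in NSC and not ESC was -0.14, and that for ESC and not iPSC 0.22. Above 5 FPKM the 3' UTR medians of called and uncalled transcripts differed by 237 bases in ESC and 450.5 in iPSC, against 184 and 531.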

Other observations

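All 1198 NR transcripts of the table had no call in any region and any cell type. Whether they were left out of the calling is not stated in the sources used here.

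The broader m6A consensus, of which GGACT is 1 form, was present in 98.7% of the stop codon windows, so its presence could not separate called from uncalled transcripts. The shares by last-exon position were 49.1% and 33.6% in iPSC, 38.3% and 29.1% in NSC, and 45.3% and 32.6% in SC, for stop codons inside and outside the last exon.

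Imprinted genes were called in 6 of 14, 10 of 16, 2 of 14 and 8 of 12 expressed genes in ESC, iPSC, NSC and SC. Ndn was called in all 4, at 4.11, 3.75, 7.24 and 92.0 FPKM. Igf2r and Peg3 were called in all but NSC, where both were highest at 109 and 123 FPKM. Gnas, at 208 FPKM in NSC and 787 FPKM in SC, was uncalled everywhere. Collagen genes were called in 11 of 22 expressed genes in SC. Of the most expressed there, Col4a1 and Col4a2 were uncalled at 950 and 700 FPKM, and Col1a1 and Col5a2 were called at 540 and 206 FPKM.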
